A study of Mus musculus with 16 samples.

Results

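The genes of platelet-derived growth factor signalling examined here were the ligand gene Pdgfa and the receptor genes Pdgfra and Pdgfrb. They are 3 of 15876 genes in the tables and were chosen by gene symbol, each with 1 row in every library. RNA-seq was made from small regions of CD1 mouse embryos, with 16 libraries over embryonic days E8.5, E9.5 and E10.5, and all embryos were of this strain with no other genotype or treatment named in the labels. The neural epithelium libraries were E8.5 caudal brain, floor plate and non-floor plate, and E10.5 lateral prominence, central and dorsal control. Surface epithelium had 2 libraries, the epidermal ectoderm of E9.5 and the olfactory pit of E10.5, the infolding placode of the future nose. The 8 mesenchymal regions were E8.5 mesoderm, E9.5 cranial mesenchyme, the mandibular and maxillary arches at E9.5 and at E10.5, and the E10.5 lateral and medial nasal prominences. Arches and prominences are mesenchyme with a surface cover, and the labels do not say whether the cover was removed or how many embryos gave a library.

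PDGF ligands are secreted dimers that bring receptor tyrosine kinases together at the cell surface. PDGF-A acts through PDGFRα, which cranial neural crest and other embryonic mesenchyme carry, and loss of PDGFRα signalling in mice leaves clefts of the face. PDGFRβ is best known from pericytes and smooth muscle around vessels and from mesenchyme, where PDGF-B is its main ligand. The values below answer whether epithelium carried the ligand transcript and mesenchyme the receptor transcripts.

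Each deposited value was a ratio to the gene's own median across libraries. In what follows a level is that value as a multiple of the lowest one the gene reaches, so a level of 1 is the lowest value, called the floor where several libraries share it. Pdgfa was at its floor in 3 libraries, Pdgfra in 7 and Pdgfrb in 8. A fold against a library at the floor is a lower limit, and levels cannot be compared between genes. Each region and stage had 1 library, so the spread in every test is spread between regions and not between repeats. In these bulk samples, fewer cells of a type and less RNA per cell cannot be told apart.

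Several features of the libraries touch the members' values. The library labelled E10.5 medial nasal prominence went against its label: 0 of 17 measured mesenchyme markers were above the floor, and Twist1 and Prrx1 were at the floor. In it 12 of 12 neural epithelium markers were above the floor and 10 were at 2 or more. Sox2 was at a level of 26.1, but Pax6 was at 1.51. Results are therefore given with and without that library. The column headers and the titles of the central and dorsal control libraries name each other's region, and both are neural epithelium under either name. Low values were also spread unevenly. Among genes whose lowest value is shared, 50.6% to 59.1% were at the floor in 10 libraries and 63.8% to 81.5% in the E10.5 lateral nasal prominence, both E10.5 arches and the 3 E10.5 neural epithelium libraries. Levels are therefore also given relative to the median gene of each library. The labels state more than 40000000 reads for each library and no total was given, so no counting interval was computed.

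Promoter sequence is shown for the measured ligand genes Pdgfa and Pdgfc and for the receptor gene Pdgfra, whose levels differ most between the tissue classes. The sequences are RefSeq, build GRCm38.p6, read 5′ to 3′ on the strand of the gene, and capitals mark each CG dinucleotide. They lie at chr5:138995038-138995194 on the minus strand for Pdgfa, chr5:75152001-75152250 on the plus strand for Pdgfra and chr3:81036166-81036415 on the plus strand for Pdgfc, each upstream of the first exon annotated there.
Pdgfa: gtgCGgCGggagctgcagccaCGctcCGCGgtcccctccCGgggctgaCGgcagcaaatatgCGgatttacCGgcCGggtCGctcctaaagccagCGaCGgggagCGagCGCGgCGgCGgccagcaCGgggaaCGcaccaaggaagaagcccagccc
Pdgfra: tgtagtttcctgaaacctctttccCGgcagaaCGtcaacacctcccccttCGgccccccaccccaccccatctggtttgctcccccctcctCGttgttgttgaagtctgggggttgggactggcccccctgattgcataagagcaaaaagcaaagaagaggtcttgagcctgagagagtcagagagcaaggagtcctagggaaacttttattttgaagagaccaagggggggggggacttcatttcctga
Pdgfc: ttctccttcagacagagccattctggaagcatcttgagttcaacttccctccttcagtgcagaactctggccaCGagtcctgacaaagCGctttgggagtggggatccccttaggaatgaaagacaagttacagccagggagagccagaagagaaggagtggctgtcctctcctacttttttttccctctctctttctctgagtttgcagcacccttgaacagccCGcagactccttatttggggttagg
The Pdgfa stretch of 157 bases held 20 CG dinucleotides and 72% G or C. Over the same 157 bases of all 32851 promoter windows in the table the median was 3, and 4.42% of windows held as many. The Pdgfra stretch of 250 bases held 4 and the Pdgfc stretch of 250 bases held 3, against a median of 6, and 62.2% and 71% of windows held as many. The letters TATAAA of the core promoter element, GGGCGG of the Sp1 box, GCCNNNGGC of AP-2 factors and the E-box CAGGTG of Snail and Zeb factors were searched on both strands. None of these 4 motifs was in any of the 3 stretches. Of all windows, 12.4%, 32.7%, 13.7% and 17.2% held the respective motif in 250 bases, and 7.55%, 17.6%, 7.87% and 11.3% in 157 bases. The deposited data do not measure binding or chromatin at these promoters.

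Pdgfa transcript was highest in surface epithelium. Its level was 88.2 in the E10.5 olfactory pit and 22.6 in the E9.5 epidermal ectoderm. In E8.5 neural epithelium it was 13.9 in the floor plate, 10.02 in the caudal brain and 8.24 in the non-floor plate. The summed level of 12 surface epithelium markers was also highest of these in the floor plate, at 34.6 with 5 markers above the floor, against 12.07 and 15.3, and its part in the Pdgfa value was not tested. At E10.5 the neural libraries were lower, at 3.66 in the central, 2.03 in the dorsal control and 1.78 in the lateral prominence library. Both surface libraries were above all 14 others, which was also the case for 3.28% of the 12851 genes tested, and the 6 neural libraries were all above the floor. The summed level of 12 neural epithelium markers was 212 in the olfactory pit and 132 in the epidermal ectoderm, against 79.6 to 315 in neural epithelium. Sox2 was 28.2 and 30.7 and Pax6 was 27.0 and 25.9 in these surface libraries. The part of cells with neural markers in their Pdgfa values was not tested.

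In the mesenchymal regions Pdgfa lay between the floor and 5.64. It was at the floor in the E9.5 cranial mesenchyme, the E10.5 lateral nasal prominence and the E10.5 mandibular arch. The level was 2.27 in E8.5 mesoderm, 1.49 in the E9.5 mandibular arch and 2.26 in the E9.5 maxillary arch. The library labelled medial nasal prominence had 1.83. The E10.5 maxillary arch had 5.64, the highest of this class, which exceeded all 3 E10.5 neural libraries, so the classes overlapped. Among the surface epithelium markers of the E10.5 maxillary arch, 2 of 12 were above the floor and 1 was at 2 or more, with a summed level of 14.04, where 12 is the floor total. The sum was 12 in the other 3 E10.5 mesenchymal libraries and 12.62 in the E9.5 maxillary arch, against 277 and 346 in the surface libraries. Epcam and Cdh1, an adhesion molecule and the cadherin of epithelia, were at the floor in the E10.5 maxillary arch. Of 12 neural epithelium markers 5 were above the floor in that library, with Pax6 at 4.72 and a summed level of 17.7. This sum was 43 in the E9.5 maxillary arch, 36.6 in E8.5 mesoderm and 16.6 in the E9.5 mandibular arch. It was 19.8, 12.9 and 13.0 in the cranial mesenchyme, lateral nasal prominence and E10.5 mandibular arch, where Pdgfa was at the floor. The library labelled medial nasal prominence had 284. The part of surface or neural cells in the Pdgfa value of the E10.5 maxillary arch was not tested.

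**Figure D1:**
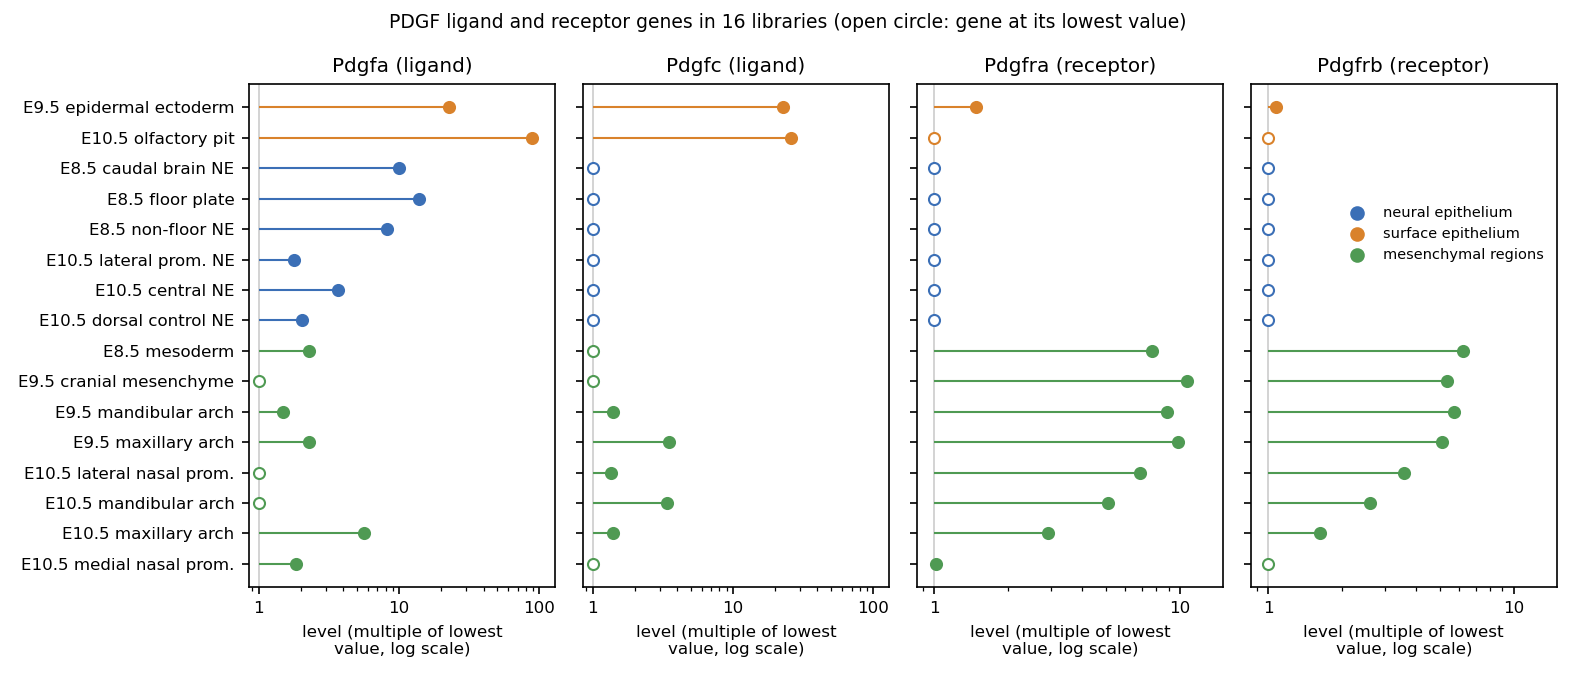
Level of Pdgfa, Pdgfc, Pdgfra and Pdgfrb (x axis, multiple of the lowest value of each gene, log scale) in each of the 16 libraries (y axis), coloured by tissue class, with open circles where the gene is at its lowest value. Pdgfa is highest in the olfactory pit at 88.2 and the epidermal ectoderm at 22.6, whereas Pdgfra and Pdgfrb reach 10.7 and 6.24 in mesenchymal regions and are at the floor in all 6 neural libraries.

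Pdgfa differed between surface epithelium and the mesenchymal regions but did not pass the threshold between all epithelium and the mesenchymal regions. The mean log2 value was 1.93 ± 1.88 (SD, n = 8) in epithelium and -0.39 ± 0.86 (SD, n = 8) in mesenchymal regions, a difference of 2.32 (SE 0.68, limma adjusted p = 0.135). In this comparison 1.05% of the 12851 genes tested were called, that is, had an adjusted p under 0.05 together with a change of 2-fold or more. An exact 2-sided permutation test of Pdgfa alone over the 12870 arrangements of 8 against 8 libraries gave p = 0.00513, and 0.00893 when libraries were exchanged only within a stage. The permutation test was run on 6 values in all, and its p-values are not adjusted for the 12851 genes.

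With the classes of epithelium taken apart, Pdgfa was 4.69 higher on the log2 scale in the 2 surface libraries than in the 8 mesenchymal ones (SE 0.82, limma adjusted p = 0.00484), where 1.39% of all genes were called. Pdgfa passed on the background of 1.32% of genes called higher. Without the olfactory pit the difference was 3.71 with an adjusted p of 0.186, and without the epidermal ectoderm it was 5.67 with an adjusted p of 0.0114. The call thus rests on the olfactory pit. Without the library labelled medial nasal prominence it was 4.70 with an adjusted p of 0.00711, where 2.4% of genes were called. Neural epithelium was 1.53 above the mesenchymal regions (SE 0.56, limma adjusted p = 0.233). Surface epithelium was 3.16 above neural epithelium (SE 0.84, limma adjusted p = 0.0955), where 1.08% of genes were called. This difference passed without the E8.5 floor plate (3.46, adjusted p = 0.0451) and with stage in the model (4.11, adjusted p = 0.0175). The difference in Pdgfa had the same sign within each stage: epithelium was higher by 2.20 at E8.5 (3 libraries against 1), 3.91 at E9.5 (1 against 3) and 1.71 at E10.5 (4 against 4).

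Pdgfra and Pdgfrb transcripts were high in mesenchymal regions and at or near the floor in epithelium. Pdgfra had its highest level, 10.7, in the E9.5 cranial mesenchyme. It followed at 9.82 in the E9.5 maxillary arch, 8.86 in the E9.5 mandibular arch and 7.72 in E8.5 mesoderm. At E10.5 it was 6.89 in the lateral nasal prominence, 5.09 in the mandibular arch and 2.91 in the maxillary arch. The library labelled medial nasal prominence had 1.02. All 6 neural libraries and the olfactory pit were at the floor, and the epidermal ectoderm had 1.49. The lowest mesenchymal library other than the one labelled medial nasal prominence was thus above every epithelial library, and all 7 of them were at least 2.91-fold above the floor.

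Pdgfrb kept a similar order. It was highest in E8.5 mesoderm at 6.24, then 5.70 in the E9.5 mandibular arch, 5.37 in the E9.5 cranial mesenchyme and 5.09 in the E9.5 maxillary arch. At E10.5 it was 3.58 in the lateral nasal prominence, 2.60 in the mandibular arch and 1.63 in the maxillary arch. The library labelled medial nasal prominence, the olfactory pit and all 6 neural libraries were at the floor, and the epidermal ectoderm had 1.08. With 1 library a region, the order of neighbouring regions has no replicate error.

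Both receptor genes were lower in epithelium than in mesenchymal regions. For Pdgfra the difference in mean log2 value was -2.37 (SE 0.49, limma adjusted p = 0.0285), with -0.25 ± 0.20 (SD, n = 8) in epithelium and 2.11 ± 1.15 (SD, n = 8) in mesenchymal regions. For Pdgfrb it was -1.72 (SE 0.39, limma adjusted p = 0.0401), with -0.04 ± 0.04 (SD, n = 8) against 1.67 ± 0.96 (SD, n = 8). Both were thus called where 0.521% of the genes tested were called lower. The sizes depend on the floor, at which 7 of 8 epithelial libraries lay for each receptor gene. The exact permutation test gave p = 0.000311 for Pdgfra and 0.0014 for Pdgfrb, where 0.0001554 is the smallest p possible. Exchanged within stages, p was 0.000893 for Pdgfra, the smallest p those 1120 arrangements allow, and 0.00446 for Pdgfrb.

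The adjusted calls of the receptors were sensitive to the libraries included. Pdgfra missed the threshold in 7 of the 16 fits that left out a library, namely without any 1 of the 6 neural libraries or without the olfactory pit. Its difference was -2.36 in each of those 7 fits, with adjusted p from 0.0617 to 0.14. Pdgfrb missed it in 12 of 16, without any 1 of the 6 neural libraries, the olfactory pit, the epidermal ectoderm, the E9.5 cranial mesenchyme, either E9.5 arch or the E10.5 lateral nasal prominence. Its difference there was -1.73 to -1.60 with adjusted p from 0.0606 to 0.134. Without the library labelled medial nasal prominence the differences grew to -2.71 for Pdgfra (adjusted p = 0.002) and -1.96 for Pdgfrb (adjusted p = 0.00402), and 2.82% of genes were called. In those 15 libraries neither receptor gene overlapped between epithelium and mesenchymal regions, as was the case for 0.459% of genes with epithelium below.

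Against neural epithelium alone the differences were -2.44 for Pdgfra (SE 0.52, limma adjusted p = 0.0314) and -1.73 for Pdgfrb (SE 0.42, limma adjusted p = 0.0569), where 1.1% of genes were called and 0.591% called lower. All 6 neural libraries were at the floor, so these fitted sizes are no bound. Without the library labelled medial nasal prominence both passed, at adjusted p of 0.002 for Pdgfra and 0.00512 for Pdgfrb, with 3.24% of genes called. Leaving out any 1 neural or surface library took the Pdgfra call away (adjusted p 0.0541 to 0.147). Pdgfrb also passed without the E10.5 maxillary arch (-1.88, adjusted p = 0.0384). Surface epithelium, with 2 libraries, was below the mesenchymal regions by 2.15 in Pdgfra (SE 0.77) and by 1.67 in Pdgfrb (SE 0.61) on the log2 scale, with limma adjusted p of 0.296 and 0.329.

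**Figure D2:**
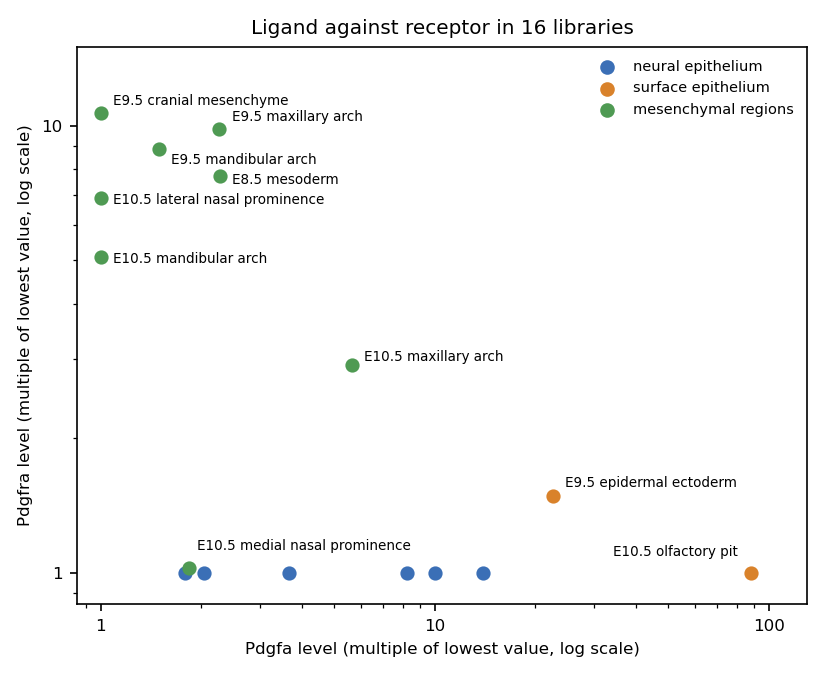
Pdgfa level (x axis) against Pdgfra level (y axis), both as multiples of the lowest value on log scales, for 16 libraries coloured by tissue class. Libraries with a Pdgfra level of 5.09 or more have Pdgfa at 2.27 or less, and the E10.5 maxillary arch lies between the groups at 5.64 and 2.91.

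The ligand and the receptor were set against each other within a library, which removes the scaling of the library only where both genes are above their floor. Pdgfra and Pdgfrb were each at their floor in 7 of 8 epithelial libraries, and Pdgfa in 3 of 8 mesenchymal ones. There the quotient keeps the scaling of the library and follows the other gene alone, so tests of the quotients partly repeat those of the single genes. The Pdgfra level divided by the Pdgfa level was 0.0113 in the olfactory pit and 0.0659 in the epidermal ectoderm. It ran from 0.0719 to 0.121 in the 3 E8.5 neural libraries and from 0.273 to 0.562 in the 3 E10.5 ones. In mesenchymal regions it was 3.40 in E8.5 mesoderm, 10.7 in the E9.5 cranial mesenchyme, 5.94 and 4.34 in the E9.5 mandibular and maxillary arches, 6.89 in the lateral nasal prominence and 5.09 in the E10.5 mandibular arch. The E10.5 maxillary arch at 0.516 and the library labelled medial nasal prominence at 0.558 were within the range of E10.5 neural epithelium. Each gene is on its own scale, so a quotient above 1 does not mean more receptor than ligand transcript.

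The log2 quotient of Pdgfra over Pdgfa was 4.69 lower in epithelium than in mesenchymal regions, fitted as -4.69 with an exact permutation p of 0.000466. For Pdgfrb over Pdgfa the difference was -4.03 with an exact permutation p of 0.000777. Both kept their sign within each stage, at -5.15, -6.63 and -3.38 for Pdgfra over Pdgfa and -4.84, -6.22 and -2.69 for Pdgfrb over Pdgfa in the order of the stages. Across the 16 libraries Pearson's r of log2 values was -0.58 between Pdgfa and Pdgfra and -0.57 between Pdgfa and Pdgfrb. These are descriptions over libraries that share tissue class and scaling.

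The receptors varied together. Pearson's r between the log2 values of Pdgfra and Pdgfrb was 0.98 over the 16 libraries, of which 7 had both genes at the floor. In the mesenchymal regions the Pdgfrb level divided by the Pdgfra level was 0.808 in E8.5 mesoderm, 0.504 in the E9.5 cranial mesenchyme and 0.511 to 0.644 in the 4 arch libraries and the lateral nasal prominence. It was 0.979 in the library labelled medial nasal prominence, where both genes were at or near the floor. The exact permutation test of the log2 quotient between classes gave a difference of 0.65 and p = 0.00155. In epithelium this quotient was set by the floor in 7 of 8 libraries, where it is 1.

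Levels of the 3 genes were also compared between stages within a tissue class. Pdgfa in neural epithelium was 8.24 to 13.9 at E8.5 and 1.78 to 3.66 at E10.5. The log2 difference was -2.15 (SE 0.49, limma adjusted p = 0.018, 3 against 3 libraries), in a comparison where 19.8% of 10466 genes were called and 1767 of the 2077 called genes were lower. Relative to the median gene it was -1.78 (limma adjusted p = 0.037) with 16.2% of genes called. The E8.5 and E10.5 neural libraries are also different regions, so region and stage cannot be told apart. In surface epithelium the E9.5 epidermal ectoderm had 22.6 and the E10.5 olfactory pit 88.2, with no replicate of either.

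**Figure D3:**
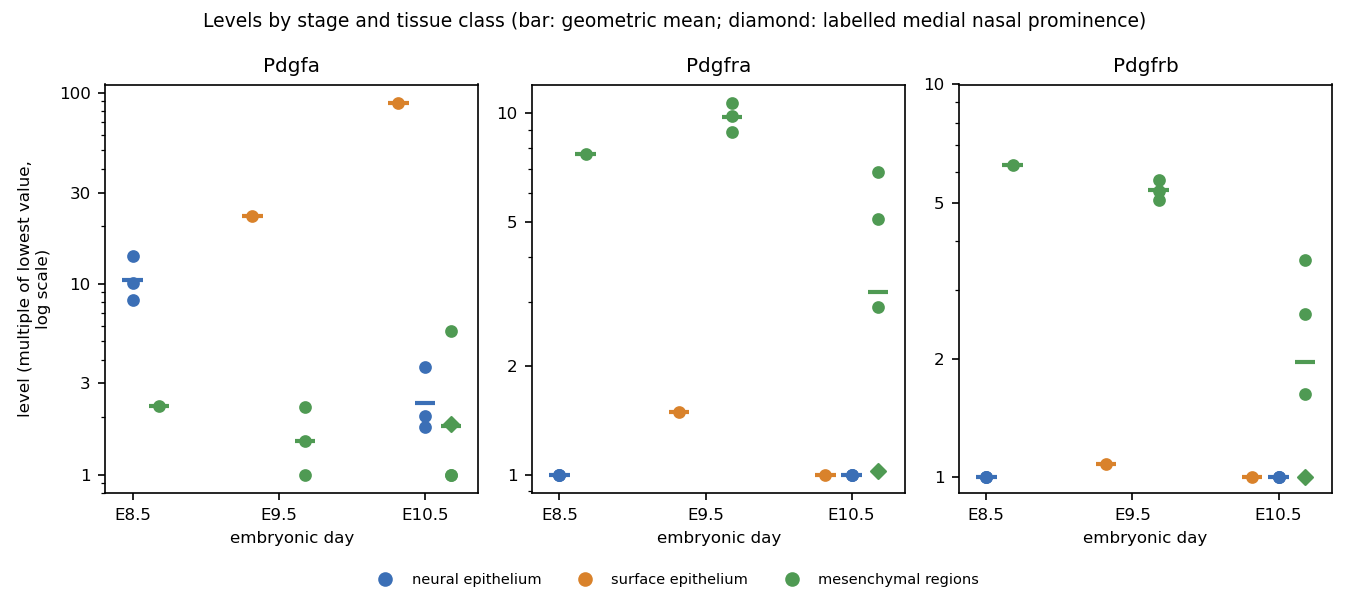
Level (y axis, multiple of the lowest value, log scale) of Pdgfa, Pdgfra and Pdgfrb by embryonic day (x axis), with 1 point a library, bars at the geometric mean of each class and stage, and a diamond for the library labelled medial nasal prominence. Pdgfa in neural epithelium lies at 8.24 to 13.9 at E8.5 and 1.78 to 3.66 at E10.5, and both receptors lie lower in E10.5 than in E9.5 mesenchymal regions.

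In mesenchymal regions both receptors had lower levels at E10.5 than at E9.5, and neither passed the test. Pdgfra was 8.86 to 10.7 in the 3 libraries of E9.5 and 1.02 to 6.89 in the 4 of E10.5, and Pdgfrb was 5.09 to 5.70 against 1 to 3.58. The log2 differences were -1.61 for Pdgfra (SE 1.33, limma adjusted p = 0.396) and -1.45 for Pdgfrb (SE 0.69, limma adjusted p = 0.173), where 1.62% of genes were called. Without the library labelled medial nasal prominence they were -1.06 and -1.12 (limma adjusted p of 0.258 and 0.102), where 40.5% of genes were called, 4042 of 4189 of them lower. Relative to the median gene these became -0.14 and -0.20 (limma adjusted p of 0.895 and 0.792), where 15.4% of genes were called.

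Arch by arch, the deposited receptor values were also lower at E10.5, with 1 library on each side and no test. From E9.5 to E10.5 the mandibular arch went from 8.86 to 5.09 in Pdgfra and from 5.70 to 2.60 in Pdgfrb, and the maxillary arch from 9.82 to 2.91 and from 5.09 to 1.63. Relative to the median gene of each library, Pdgfra was 7.20 and 8.29 in the mandibular arch and 7.69 and 5.14 in the maxillary arch at E9.5 and E10.5. Pdgfrb on that scale was 4.64 and 4.23 in the mandibular arch and 3.99 and 2.88 in the maxillary arch. The direction in the mandibular arch thus turned for Pdgfra with the scaling, while the maxillary arch stayed lower at E10.5 for both receptors. In the mandibular arch Pdgfa was 1.49 at E9.5 and at the floor at E10.5, so that E10.5 over E9.5 was 0.67, whereas it was 1.33 when scaled to the median gene. Both are upper limits because of the floor, so the scaled value gives no direction. Pdgfa in the maxillary arch was 2.26 at E9.5 and 5.64 at E10.5, or 1.77 and 9.97 relative to the median gene. Over the mesenchymal regions the log2 difference of Pdgfa between E10.5 and E9.5 was 0.26 (SE 0.63, limma adjusted p = 0.783). A test of whether the difference between epithelium and mesenchymal regions changed with stage gave limma adjusted p of 0.999 for each of the 3 genes, with unadjusted p of 0.546 for Pdgfa, 0.443 for Pdgfra and 0.0943 for Pdgfrb, and 23 of 12851 genes passed it.

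Markers of other cell types moved with the receptors in part. The summed level of the 17 measured mesenchyme markers was 145 to 211 in the 7 mesenchymal libraries other than the one labelled medial nasal prominence, where it was 17, the floor total. In epithelium it was highest in the E8.5 floor plate at 89.6, with 6 of 17 markers at 2 or more. Twist1 and Prrx1 were at the floor there, as were Pdgfra and Pdgfrb. The epidermal ectoderm had 77.7, with 11 of 17 at 2 or more, Twist1 at 4.7, Prrx1 at 5.1 and Pdgfra at 1.49. The part of these cells in the value of 1.49 was not tested.

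The endothelium list followed the receptors most closely among the lists of vessel and blood cells. Its summed level over 11 markers was 101 in E8.5 mesoderm and 53.3 to 60.9 in the 3 mesenchymal libraries of E9.5. It was 20.2 to 24.2 in the 4 of E10.5, and 11 to 14.9 in epithelium, where 11 is the floor total. Pearson's r over the 16 libraries between log2 Pdgfrb and the log2 of the summed level of this list was 0.94, against 0.82 for the mesenchyme list, and for Pdgfra 0.89 and 0.88. The sums and r of all lists use deposited values and were not computed relative to the median gene. That gene lay at -0.38, -0.70 and -0.82 on the log2 scale in the lateral nasal prominence and the E10.5 mandibular and maxillary arches. Cdh5, the endothelial cadherin, was 15.9 in E8.5 mesoderm and 2.0 in the E10.5 maxillary arch, and at the floor in 7 of 8 epithelial libraries. Pecam1, an adhesion molecule of endothelium, was 2.85 to 6.63 in mesenchymal regions. It was also 4.36 and 3.16 in the E10.5 lateral prominence and central neural libraries, with Pdgfrb at the floor in both. Of the 11 endothelium markers only 3 and 2 were above the floor in these libraries, and only 1 in each was at 2 or more. The library labelled medial nasal prominence had Pecam1 at 4.81 and Pdgfrb at the floor. Of the 12 mural cell markers 6 were measured. Rgs5, a pericyte gene, was at the floor in E8.5 mesoderm, the E9.5 cranial mesenchyme and the E9.5 maxillary arch. It was 1.92 in the E9.5 mandibular arch. In these 4 libraries, which had the highest Pdgfrb, 5, 4, 4 and 5 of the 6 mural markers were above the floor. The summed mural level was 6 to 16.1 in mesenchymal regions and highest in the E8.5 floor plate at 33.9, with r of 0.02 to Pdgfrb. Neural crest and blood markers also moved with the receptors. The neural crest list had r of 0.72 to each receptor gene, with a summed level over 12 markers of 29.4 to 871 in mesenchymal regions and 21.7 to 89.9 in neural epithelium, and Sox10, a factor of migrating crest, was at the floor in 13 libraries. The blood list had r of 0.72 to Pdgfra and 0.64 to Pdgfrb. Its sum over 11 markers was highest in the E9.5 cranial mesenchyme, at 4344, where Pdgfra was also highest, but it was 979 in the olfactory pit with both receptors at the floor. The part of endothelial, mural, neural crest or blood cells in the receptor values was not tested.

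**Figure D4:**
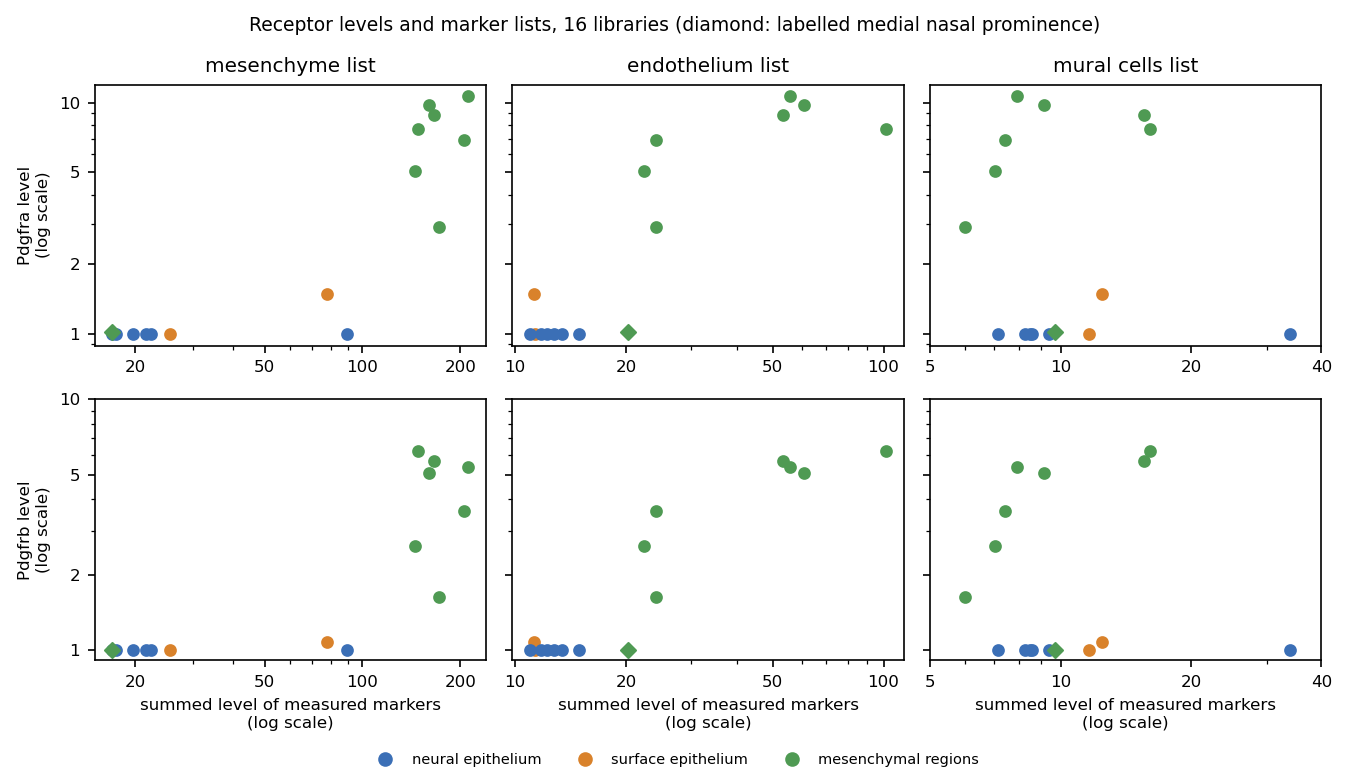
Pdgfra (top row) and Pdgfrb (bottom row) level against the summed level of the measured mesenchyme, endothelium and mural cell markers, all on log scales, 1 point a library coloured by tissue class, with a diamond for the library labelled medial nasal prominence. Receptor levels are high only where the mesenchyme sum is 145 or more, and lie at 1 in every library with an endothelium sum of 14.9 or less other than the epidermal ectoderm, and the library with the highest mural sum, the E8.5 floor plate, has both at the floor.

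The genes most like each member across the 16 libraries were taken from the 12851 genes tested by Pearson's r of log2 values. For Pdgfa they were Lama5 (0.918), a laminin chain of epithelial basement membranes, Spint1 (0.904), an epithelial serine protease inhibitor, Fras1 (0.895), a basement membrane protein, Grb7 (0.883), an adaptor protein, and Gm15351 (0.881). Lama5 had levels of 7.82 in the olfactory pit, 5.83 in the epidermal ectoderm and 2.90 to 4.27 in E8.5 neural epithelium. It was 1.42 in E8.5 mesoderm and at the floor in the other 10 libraries, so unlike Pdgfa it was at the floor in E10.5 neural epithelium. Pdgfa also had r = 0.82 with the surface epithelium marker list.

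For Pdgfra the most similar genes were Fli1 (0.989), an Ets factor of endothelial and mesenchymal cells, Pdgfrb (0.981), Arhgap31 (0.977), a GTPase-activating protein, Gpr124 (0.969), an adhesion receptor of brain endothelium, and Tns1 (0.967), a focal adhesion protein. Fli1 was 22.9 in the E9.5 maxillary arch, 19.6 in the E9.5 mandibular arch, 14.7 in E8.5 mesoderm and 1.63 in the epidermal ectoderm, and at the floor in the olfactory pit and all 6 neural libraries. For Pdgfrb they were Arhgap31 (0.988), Pdgfra (0.981), Rasgrp3 (0.976), an activator of Ras proteins, Fli1 (0.973) and Zcchc24 (0.966). The libraries at the floor are shared by these genes and weigh on each r, over n = 16.

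Of the other PDGF ligands, Pdgfc was measured and Pdgfb and Pdgfd were not in the tables analysed here. PDGF-C also binds PDGFRα and is released as an inactive form that tissue plasminogen activator, the product of Plat, can cut. Pdgfc was 25.8 in the olfactory pit and 22.8 in the epidermal ectoderm. It was 3.50 in the E9.5 maxillary arch, 3.39 in the E10.5 mandibular arch, 1.36 to 1.40 in the E9.5 mandibular arch, the E10.5 maxillary arch and the lateral nasal prominence, and at the floor in the other 9 libraries, all 6 neural ones included. Unlike Pdgfa it was thus at the floor throughout neural epithelium. Surface epithelium exceeded the mesenchymal regions by 3.98 on the log2 scale (SE 0.58, limma adjusted p = 0.000875) and neural epithelium by 4.60 (SE 0.60, limma adjusted p = 0.000314), the second size resting on the floor.

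Of the 87 other genes listed for the pathway, 78 were measured and 73 tested. Between all epithelium and the mesenchymal regions 0 rose and 1 fell, and 10 had an unadjusted p under 0.05. Over all genes tested 1.05% were called and 10.8% had an unadjusted p under 0.05, so the list was near the background. Its median log2 difference was -0.03 against 0.08 over all genes tested. The gene that fell was Plk2, a serum-induced kinase and target of growth factor signalling, at -1.58 (SE 0.31, limma adjusted p = 0.0185). Plk2 was 7.11 in E8.5 mesoderm and 2.71 to 5.91 in the E9.5 and E10.5 mesenchymal libraries other than the one labelled medial nasal prominence, which had 1.62. In epithelium it was 3.08 in the epidermal ectoderm, 1.85 in the olfactory pit and 1 to 1.59 in the neural libraries, so the classes overlapped. Between surface epithelium and the mesenchymal regions 2 of 73 rose and 0 fell, where 1.32% of all genes were called higher, with a median of 0.30 against 0.25 over all genes. These were Pdgfc and Plat, which was 3.81 in the olfactory pit, 3.29 in the epidermal ectoderm and 2.02 or less elsewhere (difference 1.58, SE 0.28, limma adjusted p = 0.00556).

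Between neural epithelium and the mesenchymal regions 0 of 73 rose and 2 fell, Plk2 (-1.86, limma adjusted p = 0.00903) and Sgk1 (-1.93, limma adjusted p = 0.0187), a kinase downstream of PI3K, where 0.591% of all genes were called lower. The median of the list was -0.17 against 0.01 over all genes. By role, 0 of 16 adaptors and co-receptors, 0 of 26 effectors and 0 of 10 negative regulators passed in any of the 4 class comparisons. At an unadjusted limma p under 0.05 were 1 to 4, 1 to 4 and 1 to 2, against 8.74% to 12% of all genes. The count of 4 adaptors was between surface and neural epithelium, where 8.98% of all genes had such a p. That of 4 effectors was between neural epithelium and mesenchymal regions, where 12% had it. Of the whole list, 14 of 73 had it in each of those comparisons. Between surface epithelium and mesenchymal regions 10 of 73 had it, against 8.74% of all genes. The adaptor with the largest difference was Slc9a3r1, also called NHERF1, which binds the tails of PDGF receptors. It was 14.9 in the epidermal ectoderm, 13.9 in the olfactory pit and 1 to 5.86 elsewhere, with a surface to mesenchymal difference of 3.46 (limma adjusted p = 0.0549). It was singled out after its values were seen.

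Relatives of the receptors lie beside Pdgfra and Pdgfrb in kinase sequence or on the chromosome, and none of the 6 tested passed. At an unadjusted limma p under 0.05 were 4 for epithelium and 4 for neural epithelium against mesenchymal regions, where 10.8% and 12% of all genes were. It was 2 for surface epithelium against mesenchymal regions and 1 for surface against neural epithelium, where 8.74% and 8.98% of all genes were. Kdr and Flt1, the receptors of VEGF on endothelium, were highest in E8.5 mesoderm, at 12.4 and 9.10. Flt4, another relative, was also highest there, at 8.985, and was at the floor in all 8 epithelial libraries. Kdr was at the floor in all 8 epithelial libraries, and its difference between epithelium and mesenchymal regions was -1.77 (limma adjusted p = 0.0782). Kit, the stem cell factor receptor and neighbour of Pdgfra, had another pattern, with 14 in the olfactory pit, 11.8 in the epidermal ectoderm and 1 to 6.79 elsewhere. Its surface to mesenchymal difference was 1.82 (limma adjusted p = 0.107). Flt3 and Csf1r were not in the tables analysed here.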

How the data were processed

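Per the labels' protocols, total RNA from a Zymo ZR RNA MicroPrep kit was read on the HiSeq of Illumina, in single-end reads of 50 bases. Bowtie, TopHat, TopHat2, Cufflinks and the mouse build mm9 are named in the submitters' processing notes, with versions, annotation, strand setting and filters not given in the sources used here. Values deposited by the authors are a linear ratio: the median of every one of the 15876 genes across libraries is 1 (tolerance 1e-06), and the unit before this division is not stated. In 8794 genes at least 2 libraries share the lowest value.

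Here log2 of the deposited ratio was fitted in R (4.3.3) by limma (3.58.1), allowing a trend of variance with mean, 1 fit for 2 classes and 1 for 3, over genes above their lowest value in at least 3 libraries. Benjamini-Hochberg adjustment ran over all genes tested, and a call needed an adjusted p under 0.05 and a fold of 2. The procedure was tested on simulated data. Single values were tested by exact permutation over libraries (Python 3.11.15). For scaling, each library was centred on its median gene among 7082 genes with no shared lowest value. Alternatives changed the scaling, pseudocount, filter, variance trend, stage term and the libraries included. Comparisons of stages within a class, and the fit without 1 library with a stage term, were added after values were seen. Named genes are the members, pathway genes called in a comparison, other ligands, relatives of the receptors, the 5 most similar genes and defining markers. Members and lists were chosen with earlier results of these data known.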

Additional observations from a re-analysis of the deposited data

Results flagged for a closer look

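Among the 6 arch and prominence libraries, the Pdgfrb level divided by the Pdgfra level stood apart in 1 library. In log2, the gap of the library labelled E10.5 medial nasal prominence to its nearest neighbour was 0.644 of the whole range, above Dixon's critical value of 0.625 for 6 samples. Its quotient was 0.979, against 0.511 to 0.644 in the other 5, and both genes were at or near the floor in it (levels of 1.02 and 1). Of 10 such checks 1 passed, and chance passes about 1 in 20.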

How the results depend on the processing

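The log2 differences of the member genes between tissue classes named here kept their sign under all alternatives run. The adjusted calls of the receptors did not hold under all of them. In the mandibular arch the direction from E9.5 to E10.5 turned with the scaling for Pdgfra. For Pdgfa the scaled values give no direction there, since the E10.5 value was at the floor. For epithelium against mesenchymal regions, with the filter of 8 libraries above the floor, E9.5 and E10.5 alone, and E10.5 alone, Pdgfra was -2.37, -2.25 and -1.68 (adjusted p 0.12, 0.289 and 0.598) and Pdgfrb was -1.72, -1.58 and -0.98 (0.127, 0.278 and 0.709). For neural epithelium against mesenchymal regions, Pdgfra missed the threshold with that filter (-2.44, adjusted p 0.127) and with a stage term (-2.12, 0.0885), and Pdgfrb passed it when centred (-1.78, 0.0352) and without the variance trend (-1.73, 0.0287). Pdgfa between surface and neural epithelium passed with a stage term (4.11, 0.0175). The cause of these changes was not tested. Leaving out 1 library at a time, differences ran from -2.71 to -2.23 for Pdgfra and -1.96 to -1.59 for Pdgfrb (epithelium against mesenchymal regions), from -2.78 to -2.30 and -1.98 to -1.60 (neural against mesenchymal), and for Pdgfa from 3.71 to 5.67 (surface against mesenchymal) and 2.18 to 4.15 (surface against neural). All 6 exact permutation results kept their sign and a p under 0.05 in each of their alternatives. The quotients among them partly repeat the single genes. That of Pdgfrb over Pdgfra was set by the floor in 7 of 8 epithelial libraries, so its sign is no separate result.

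Counts of called genes moved more. Between epithelium and mesenchymal regions 135 genes became 79 without a filter, 4 at E9.5 and E10.5, 0 at E10.5 alone (711 at an unadjusted p under 0.05 with limma), 471 without the library labelled medial nasal prominence and with a stage term, and 58 to 357 without 1 library; centring split them 70 higher and 111 lower against 68 and 67. Between surface epithelium and mesenchymal regions 178 (170 higher, 8 lower) became 74 when centred (60 and 14), 42 with the filter of 8 libraries and 72 to 304 without 1 library. Between neural epithelium and mesenchymal regions 142 became 264 when centred, 83 with a stage term and 64 to 411 without 1 library. Between surface and neural epithelium 139 (132 higher, 7 lower) became 58 when centred (49 and 9), 238 without a filter, 18 with the filter of 8 libraries and 77 to 174 without 1 library. Centring moved the median of all genes between surface epithelium and mesenchymal regions from 0.25 to -0.07. No paired analysis was possible because the labels give no replicate numbers and each region and stage has 1 library. Low transcript levels cannot be resolved below the floor, and the depth of each library is unknown.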
